A study of Homo sapiens with 54 samples.

Results

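The comparison described here is between HT-29 cells given epidermal growth factor (EGF) alone and HT-29 cells given insulin alone. Its members are the 12 arrays, of 54 in the series, whose labels name EGF at 100 ng/ml without TNF or insulin (6 arrays) or insulin at 500 ng/ml without TNF or EGF (6 arrays). Each treatment has 2 arrays at each of 4, 8 and 16 h, which the series describes as biological duplicates. HT-29 is an established human colorectal adenocarcinoma line. Every culture, the untreated one included, had been plated at 50000 cells per cm2 and exposed to interferon-gamma at 200 U/ml for 24 h before treatment, so no array shows cells that had not met interferon-gamma. The other arrays compared had TNF 100 ng/ml with EGF 100 ng/ml or with insulin 500 ng/ml (6 arrays each). Further ones had TNF 5 ng/ml with EGF 1 ng/ml or with insulin 5 ng/ml (6 arrays each), or were untreated (6 arrays). All were taken at the same times. The remaining arrays had TNF alone at 100 or 5 ng/ml. Those at 100 ng/ml entered only a comparison of amino acid response genes, and those at 5 ng/ml entered no comparison described here. Both kinds did enter the fit over all 54 arrays, the filter on low signal and the choice of probe sets.

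EGF binds the EGF receptor, a tyrosine kinase of epithelial cells, and activates the RAS to ERK kinase cascade together with PI3 kinase. ERK signalling induces immediate early transcription factors first, then the phosphatases and adaptors that turn the cascade down again. Insulin binds the insulin receptor and, at high concentration, the IGF1 receptor, and acts mainly through IRS proteins, PI3 kinase and AKT. AKT keeps FOXO transcription factors out of the nucleus, which lowers the transcripts they maintain, and drives mTORC1, a regulator of protein, lipid and ribosome synthesis. Both are known as survival factors for cells exposed to TNF, a cytokine that can kill interferon-primed epithelial cells.

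RNA was measured on Affymetrix human arrays as MAS5 signal, a linear brightness per probe set, and differences are given in log2 of the signal plus 12.5. The median signal ran from 124.7 to 154.7 over the 12 arrays, and replicates correlated at 0.929 to 0.977. The number of arrays, 2 per treatment and time, limits the precision. Of the 12 arrays 1 stood apart in RNA quality: for the ACTB transcript, the log2 ratio of the 3′ to the 5′ probe set was 0.976 on insulin replicate 2 at 8 h, against at most 0.401 on the other 11 arrays. Of 12 markers of a colon epithelial line 9 were above the filter on low signal, among them the keratin KRT18 with a median signal of 25885 in EGF-treated and 25471 in insulin-treated cells, while the intestinal transcription factors CDX1 and CDX2 and the cadherin CDH17 were below it. Of these 9, CEACAM5 alone passed the test between EGF and insulin. Of markers of other cell types, 3 of 6 for fibroblasts, 3 of 4 for leukocytes and 1 of 4 for endothelium were also above the filter. A probe set passes that filter if any of the 27 group means reaches it. The median signals of COL1A2, CD14, CD3E and PECAM1 in EGF-treated cells were 55.6, 114, 91.7 and 116, below the filter's signal of 139. In insulin-treated cells they were 107, 93.1, 152 and 172. The leukocyte marker PTPRC was below the filter, at 20.5 and 14.1. The brightest of the markers above it were LYZ, a leukocyte marker, and COL1A1, a fibroblast marker. Their median signals were 6513 and 374 in EGF-treated cells and 6272 and 364 in insulin-treated cells. None of the fibroblast, leukocyte or endothelial markers above the filter passed the test between EGF and insulin. A lower signal cannot tell fewer cells expressing a gene from less RNA in each cell.

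The first question is which genes separate the 2 survival factors. Averaged over the 3 times, 141 of 13422 probe sets (1.05%) differed between EGF and insulin, 128 of them higher with EGF and 13 lower, by limma with Benjamini-Hochberg adjustment at a level of 0.05. Before adjustment 1420 probe sets were under 0.05. With 1 probe set per gene, 97 of 8105 genes differed (1.2%), 87 higher with EGF (1.07%) and 10 lower (0.123%), while the median difference over all genes was -0.05. Few differences were large, with 12 probe sets at least 2-fold higher and 3 at least 2-fold lower. The count of 141 fell by over 1.5 times with any of 6 arrays left out. It was 87, 83 and 85 without EGF replicate 2 at 16 h, EGF replicate 2 at 4 h and EGF replicate 1 at 8 h, and 74, 90 and 91 without insulin replicate 1 at 16 h, insulin replicate 2 at 4 h and insulin replicate 2 at 8 h. The last is the array with the highest ACTB ratio, and without it 20 of the 45 genes named here as passing between EGF and insulin no longer passed.

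The genes furthest apart were led by ARL14, a small GTPase of the ARF-like family (probe set 220468_at, chromosome 3). Its signal with EGF was 383 and 602 at 4 h, 231 and 239.9 at 8 h and 675 and 673 at 16 h. With insulin it was 67.2 and 97.0 at 4 h, 93.5 and 96.5 at 8 h and 409 and 668 at 16 h, and in untreated cells 146 and 168 at 4 h, 102 and 124 at 8 h and 331 and 304 at 16 h. At each time both EGF arrays lay above both insulin arrays, by a mean difference of 1.32 ± 0.15 (SE; adjusted p = 9.92e-07), or 2.5-fold. CD55, the complement decay-accelerating factor of the cell surface (probe set 201925_s_at, chromosome 1), had a signal of 1867 and 2398 at 4 h, 2024 and 2334 at 8 h and 3918 and 5002 at 16 h with EGF. Insulin-treated cells had 505 and 558 at 4 h, 828 and 1081 at 8 h and 3492 and 4314 at 16 h, and untreated cells 483 and 818 at 4 h, 963 and 1049.8 at 8 h and 4107 and 3551 at 16 h. EGF and insulin arrays were apart at 4 and 8 h and overlapped at 16 h. The mean difference was 1.12 ± 0.11 (SE; adjusted p = 5.91e-08), and a second CD55 probe set gave 1.42 (adjusted p = 2.80e-08).

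DKK1, a secreted inhibitor of Wnt signalling (probe set 204602_at, chromosome 10), had a signal of 2222 and 2163 at 4 h, 2389.8 and 2660.1 at 8 h and 4567 and 5078 at 16 h with EGF. The insulin arrays gave 961 and 971 at 4 h, 1180.2 and 1497 at 8 h and 3482 and 3844 at 16 h, and the untreated arrays 636 and 702 at 4 h, 988 and 1091 at 8 h and 3400.2 and 3275 at 16 h. At every time both EGF arrays were above both insulin arrays, and these above both untreated arrays, and EGF exceeded insulin by 0.83 ± 0.10 (SE; adjusted p = 1.72e-06). CAPRIN2, an RNA-binding protein (probe set 218456_at, chromosome 12), ranged over 551 to 871 (median 731) with EGF, 274 to 503 (median 329) with insulin and 198 to 414 (median 269) untreated, a difference of 0.97 ± 0.14 (SE; adjusted p = 8.66e-05). Its EGF arrays, too, exceeded its insulin arrays at all 3 times. EGFR, the receptor of EGF itself, ranged over 476 to 1094 (median 805) with EGF, 182 to 754 (median 474) with insulin and 217 to 918 (median 483) untreated. Its difference was 0.82 ± 0.15 (SE; adjusted p = 0.0023) on the probe set described, but none of the 4 other EGFR probe sets above the filter passed the test, with differences of 0.04 to 0.38.

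Of the remaining genes among the 12 largest rises, 3 kept their call with each of the 12 arrays left out. These were DEPP1, which is described below with the genes that insulin lowered, RGCC, a regulator of the cell cycle, at 1.24 ± 0.17 (SE; adjusted p = 2.93e-05), and SMAD3, a transcription factor of TGF-beta signalling, at 0.77 ± 0.14 (SE; adjusted p = 0.00241) on the described probe set, while the 3 other SMAD3 probe sets did not pass, at 0.25, 0.37 and 1.23. PDP1, a mitochondrial phosphatase that activates pyruvate dehydrogenase, was higher by 0.82 ± 0.17 (SE; adjusted p = 0.00934), a call lost without EGF replicate 1 at 16 h or insulin replicate 2 at 8 h. The other 3 calls were less stable. MIA, a secreted protein, at 1.07 (adjusted p = 0.0288), the clock repressor BHLHE41 at 0.78 (adjusted p = 0.0379) and the class II HLA chain gene HLA-DOB at 0.78 (adjusted p = 0.0468) lost the call in 7, 11 and 8 of the 12 fits with 1 array left out, with adjusted p up to 0.257.

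**Figure D1:**
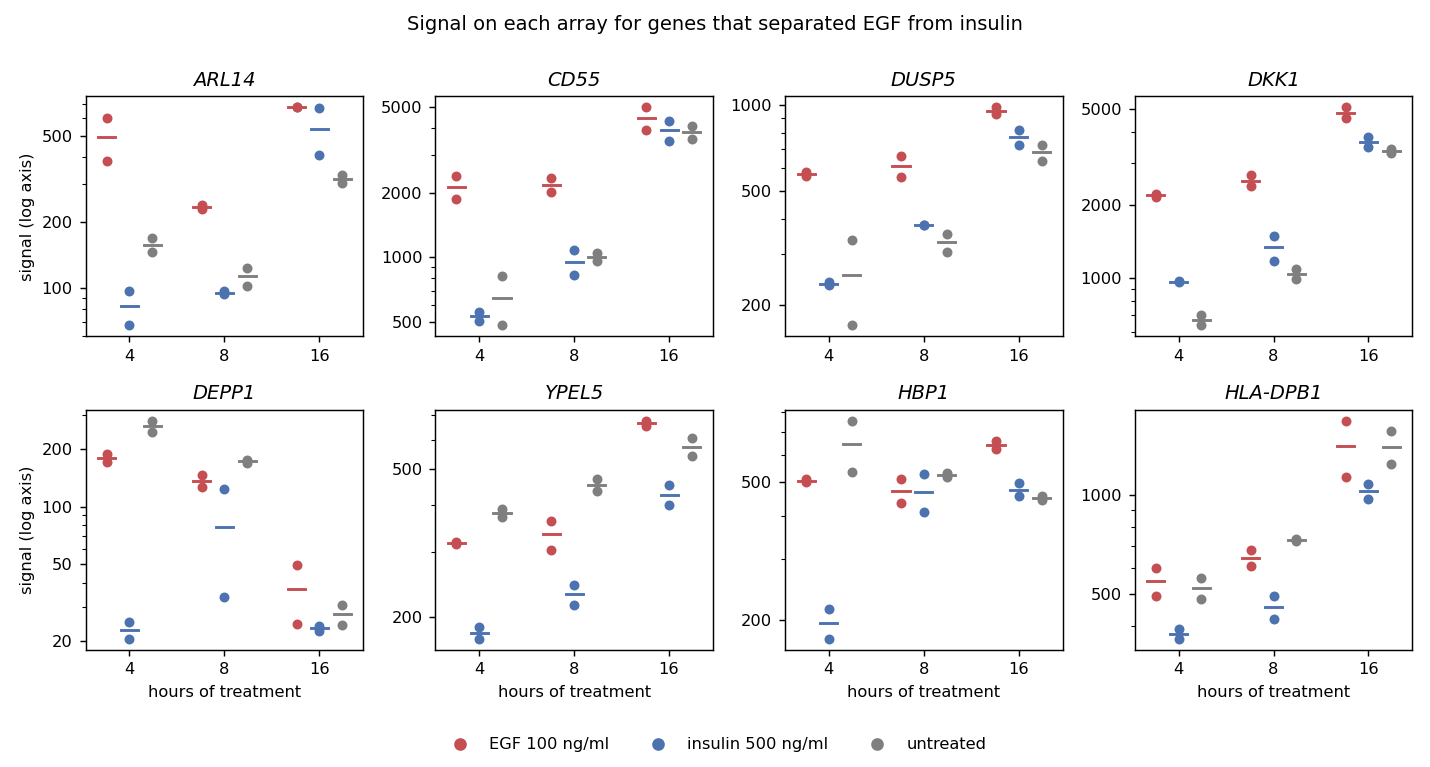
MAS5 signal (log axis) on each array against hours of treatment for 8 genes that separated EGF from insulin; points are arrays (2 per treatment and time), dashes their mean, with EGF left, insulin in the middle and untreated right. In the upper row EGF lies above insulin and untreated cells at 4 and 8 h, as with CD55 at 1867 and 2398 for EGF, 505 and 558 for insulin and 483 and 818 untreated at 4 h. In the lower row insulin lies below both at 4 h, as with DEPP1 at 170.1 and 188 for EGF, 25.0 and 20.5 for insulin and 279 and 243 untreated.

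Setting each factor against untreated cells shows on which side a gene moved. EGF changed 134 probe sets (0.998%; 108 higher, 26 lower) and insulin changed 44 (0.328%; 15 higher, 29 lower). After median centring these splits were 101 higher and 2 lower for EGF and 1 higher and 4 lower for insulin. The EGF count was 84 without EGF replicate 2 at 16 h and 88 without EGF replicate 2 at 8 h. The insulin count was 21 without insulin replicate 1 at 16 h, 28 without replicate 1 or replicate 2 at 4 h, 76 and 25 without replicate 1 and replicate 2 at 8 h, 20 without untreated replicate 1 at 16 h and 22 without untreated replicate 2 at 8 h. Both comparisons use the same 6 untreated arrays. Of the 97 genes that separated EGF from insulin, 40 passed the test for EGF only, and 39 of these lay higher with EGF than with insulin. Another 8 passed for insulin only, all of them lowered by it, 1 passed for both, and 48 passed in neither comparison with untreated cells, 39 higher with EGF and 9 lower. ARL14 belonged to the first kind, at 1.19 ± 0.15 (SE; adjusted p = 2.72e-06) for EGF and -0.13 (adjusted p = 0.924) for insulin. DEPP1 belonged to the second, at -0.19 (adjusted p = 0.887) for EGF and -1.44 ± 0.18 (SE; adjusted p = 2.02e-05) for insulin.

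**Figure D2:**
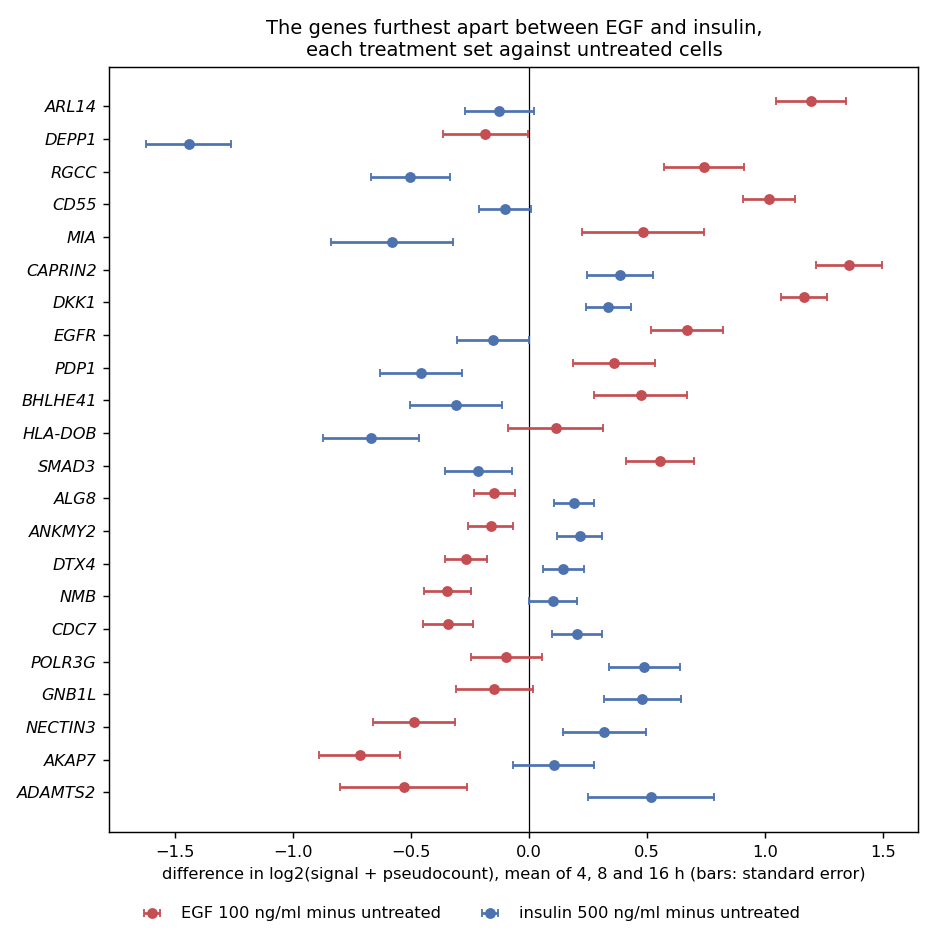
Difference from untreated cells (log2, mean of 4, 8 and 16 h; bars are standard errors) for EGF and for insulin, for the 12 genes furthest higher and the 10 genes lower with EGF than with insulin, ordered by that difference. For ARL14, CD55, CAPRIN2 and DKK1 the EGF point lies at 1.02 to 1.35, while for DEPP1 the insulin point lies at -1.44 and the EGF point at -0.19.

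Of the negative regulators that ERK signalling induces, few passed the test between EGF and insulin. The 17 measured genes of ERK feedback and MAP kinase phosphatases had a median difference of 0.24 against -0.05 over all genes. Taken singly, the list's medians at 4, 8 and 16 h were 0.01, 0.43 and 0.08, against -0.02, -0.05 and -0.05 over all genes. Of the 17 genes, 1 was higher with EGF than with insulin and none was lower, against 1.07% of all genes higher. The gene was DUSP5, a nuclear phosphatase of ERK (probe set 209457_at, chromosome 10), with a signal of 564 and 583 at 4 h, 662 and 557 at 8 h and 982 and 931 at 16 h with EGF. It was 239.7 and 234 at 4 h, 379 and 379.6 at 8 h and 725 and 820.1 at 16 h with insulin and 337 and 169 at 4 h, 354 and 306 at 8 h and 727 and 637 at 16 h untreated. EGF arrays were above insulin arrays at every time, by 0.73 ± 0.14 (SE; adjusted p = 0.00406). DUSP6, the cytoplasmic phosphatase of ERK, depended on the probe set. The described one gave 0.33 (adjusted p = 0.55), and another gave 1.67 (adjusted p = 0.0016), where insulin replicates at 8 h were 353 and 27.9. PHLDA1, which EGF raised over untreated cells by 0.95 (adjusted p = 1.34e-05), differed from insulin by 0.47 (adjusted p = 0.0619) on the described probe set. Of its 4 other probe sets 1 passed, at 0.70 (adjusted p = 0.00737), and the others gave 0.04, 0.23 and 0.56. DUSP4, ETV4 and SPRY4 did not pass, at 1.00 (adjusted p = 0.134), 0.34 (adjusted p = 0.603) and -0.02 (adjusted p = 0.97).

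Among 27 immediate early and AP-1 genes, 3 were higher with EGF than with insulin and none lower, with a median difference of 0.15, against 1.07% of all genes higher and a median of -0.05. They were JUNB, a partner in AP-1 dimers, KLF4, a zinc finger factor of epithelia, and MAFF, a small MAF protein. JUNB ranged over 1022 to 2972 (median 1474) with EGF, 674 to 2799 (median 1022) with insulin and 624 to 2978 (median 952) untreated, a difference of 0.49 (adjusted p = 0.0277). KLF4 was 2251 to 6085 (median 2585) with EGF, 1188 to 4610.0 (median 2182) with insulin and 1339.8 to 5705 (median 1999) untreated, a difference of 0.44 (adjusted p = 0.0369). MAFF was 1037 to 2618 (median 1312) with EGF, 526 to 2664 (median 834) with insulin and 633 to 2388 (median 951) untreated, a difference of 0.55 (adjusted p = 0.0379). With 1 array left out, these calls were lost in 8, 9 and 11 of the 12 fits for JUNB, KLF4 and MAFF. A second probe set did not pass for KLF4, at 0.43 (adjusted p = 0.532), or for MAFF, at 0.14 (adjusted p = 0.761). EGR1 and MYC, transcription factors of the growth factor response, gave 0.39 (adjusted p = 0.401) and 0.32 (adjusted p = 0.379), and CCND1, cyclin D1, gave -0.01 (adjusted p = 0.99). Against untreated cells EGF raised 7 of the 27 genes and insulin raised 2, FOSL1 and IER3, where 0.938% and 0.148% of all genes were higher. After median centring 2 genes of the list passed between EGF and insulin, 5 for EGF over untreated cells and 1 for insulin.

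Of the 8 genes that separated the treatments and passed against untreated cells for insulin only, DEPP1 moved furthest, and 2 others, YPEL5 and HBP1, were on the list of FOXO targets and insulin-repressed genes. DEPP1, a FOXO target that acts in autophagy (probe set 209183_s_at, chromosome 10), had a signal of 170.1 and 188 at 4 h, 146 and 126 at 8 h and 24.5 and 49.9 at 16 h with EGF. In insulin-treated cells it was 25.0 and 20.5 at 4 h, 33.7 and 123 at 8 h and 22.6 and 24.1 at 16 h, and in untreated cells 279 and 243 at 4 h, 169 and 175 at 8 h and 30.8 and 24.2 at 16 h. The insulin arrays were the lowest group at 4 and 8 h, and at 16 h no array of any group exceeded 49.9. The EGF minus insulin difference was 1.26 ± 0.18 (SE; adjusted p = 8.66e-05), while a second DEPP1 probe set gave 0.50 (adjusted p = 0.63). DEPP1 was not a member of the FOXO list. Of 20 measured genes on that list, 3 were higher with EGF than with insulin and none lower, against 1.07% of all genes higher, with a median of 0.14. Against untreated cells insulin lowered 3 (YPEL5, HBP1 and ERBB3) with a list median of -0.29, where 0.284% of all genes were lower and the median over all genes was 0.02. After median centring 1 passed. EGF raised 1 over untreated cells, FOXO1, and lowered none, with a median of -0.12.

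YPEL5, a subunit of the CTLH ubiquitin ligase (probe set 217783_s_at, chromosome 2), had a signal of 314 and 319 at 4 h, 304 and 364 at 8 h and 652 and 674 at 16 h with EGF. It was 188 and 175 at 4 h, 216 and 245 at 8 h and 402 and 453 at 16 h with insulin and 372 and 390.0 at 4 h, 437 and 469.6 at 8 h and 605 and 543 at 16 h untreated. Insulin arrays were the lowest at every time. EGF minus insulin was 0.63 ± 0.10 (SE; adjusted p = 0.000306), and insulin minus untreated was -0.79 ± 0.10 (SE; adjusted p = 2.02e-05). HBP1, a repressor of cell cycle genes (probe set 209102_s_at, chromosome 7), had 511 and 501 at 4 h, 436 and 510.3 at 8 h and 626 and 660.1 at 16 h with EGF. Insulin gave 214 and 176 at 4 h, 412 and 528 at 8 h and 455 and 498 at 16 h, and untreated cells 535 and 755 at 4 h, 519 and 532 at 8 h and 443 and 458 at 16 h. Its EGF minus insulin difference lay mostly at 4 h, at 1.33, with 0.02 at 8 h and 0.42 at 16 h, although the test of a change over time did not pass (adjusted p = 0.0781). BCL6, a transcriptional repressor, was the third list member past the test between EGF and insulin, at 0.49 (adjusted p = 0.0379), a call lost in 9 of the 12 fits with 1 array left out, and a second probe set gave 0.28 (adjusted p = 0.748). CCNG2, cyclin G2 of quiescent cells, gave 0.80 (adjusted p = 0.0697) on the described probe set and 0.86 (adjusted p = 0.00121) on another. IRS2 and TXNIP, which insulin lowers in many tissues, gave 0.29 (adjusted p = 0.661) and 0.03 (adjusted p = 0.968) for EGF minus insulin. Against untreated cells their other probe sets lay below 0 for both factors, none of them past the test. For insulin they gave -0.35 for IRS2 and -0.99 and -0.74 for TXNIP. For EGF they gave -0.22, -0.47 and -0.49 in the same order.

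Interferon-gamma, which all cells had met, induces antigen presentation genes. Of 32 measured interferon-gamma and MHC genes 3 were higher with EGF than with insulin and none lower, against 1.07% of all genes higher. Of the 32, 27 lay above 0, as did 3172 of all 8105 genes, and the median was 0.20 against -0.05. After median centring 31 of the 32 and 4864 of the 8105 lay above 0. CIITA, the master activator of class II MHC genes (probe set 205101_at, chromosome 16), had a signal of 203 and 255 at 4 h, 205 and 156 at 8 h and 296 and 568 at 16 h with EGF. It was 115 and 136 at 4 h, 138 and 145 at 8 h and 193 and 182 at 16 h with insulin and 161 and 145 at 4 h, 205 and 270.5 at 8 h and 319 and 423 at 16 h untreated. The insulin arrays were lower than the EGF arrays at every time, and the difference was 0.73 ± 0.14 (SE; adjusted p = 0.00241). Against untreated cells CIITA gave 0.11 (adjusted p = 0.927) for EGF and -0.63 (adjusted p = 0.0284) for insulin, the second call being lost in 8 of the 12 fits with 1 array left out. The 2 other CIITA probe sets gave -0.63 (adjusted p = 0.347) and 0.20 (adjusted p = 0.807). HLA-DPB1, a class II chain (probe set 201137_s_at, chromosome 6), had 493 and 601 at 4 h, 611 and 680.0 at 8 h and 1127 and 1672 at 16 h with EGF. Insulin gave 391 and 366 at 4 h, 493 and 422 at 8 h and 972 and 1075 at 16 h, and untreated cells 483 and 560.4 at 4 h, 736 and 723 at 8 h and 1239.6 and 1554 at 16 h. Both insulin arrays lay below both EGF arrays at all times. EGF minus insulin was 0.47 ± 0.09 (SE; adjusted p = 0.00406), and insulin minus untreated was -0.52 ± 0.09 (SE; adjusted p = 0.00304). After median centring no gene of the list passed for insulin against untreated cells. HLA-DRB4, a class II chain outside the list, differed by 0.76 (adjusted p = 0.0242) and GBP2, an interferon-induced GTPase, by 0.36 (adjusted p = 0.0481), calls lost in 6 and 10 of the 12 fits with 1 array left out. HLA-DRA and CD74, class II genes of the list, did not pass, at 0.47 (adjusted p = 0.0738) and 0.23 (adjusted p = 0.38), and were chosen after their values were seen. The HLA-DRB genes are near-identical copies of each other, so the value of HLA-DRB4 is uncertain.

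Of 35 type I interferon-stimulated genes 3 were higher with EGF and none lower, against 1.07% of all genes higher, and the list's median was 0.00 against -0.05 over all genes. SAMD9, an antiviral factor, ranged over 737 to 1399 (median 983) with EGF, 333 to 1228 (median 522) with insulin and 509 to 1098 (median 676) untreated. Its EGF arrays were above its insulin arrays at every time, by 0.75 ± 0.13 (SE; adjusted p = 0.000756). IRF7, an interferon regulatory factor, gave 0.45 (adjusted p = 0.0194) and ISG20, an exonuclease, 0.41 (adjusted p = 0.0163). Leaving out 1 array ended the call of IRF7 in 6 of the 12 fits and that of ISG20 in 5 of the 12.

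The promoters shown were taken from the lists with the most genes past the test. Those were 5 lists with 3 genes each, the AP-1, FOXO, interferon-gamma, type I interferon and intestinal lists. Of their 15 genes, 12 had a promoter in the RefSeq table (GRCh38.p14), and 7 of these held at least 1 of 7 motifs searched on both strands from 250 bases before to 50 after the start. The first 3 by adjusted p are shown, as examples from the FOXO, interferon-gamma and type I interferon groups. The 250 bases before the start are printed 5′ to 3′, with motif matches in capitals.
HBP1, chr7:107168753-107169002, plus strand: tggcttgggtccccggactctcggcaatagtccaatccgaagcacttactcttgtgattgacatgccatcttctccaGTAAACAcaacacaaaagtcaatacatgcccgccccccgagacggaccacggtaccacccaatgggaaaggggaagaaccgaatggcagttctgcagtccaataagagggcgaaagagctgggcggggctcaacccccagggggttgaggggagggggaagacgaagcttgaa
HLA-DPB1, chr6:33075740-33075989, plus strand: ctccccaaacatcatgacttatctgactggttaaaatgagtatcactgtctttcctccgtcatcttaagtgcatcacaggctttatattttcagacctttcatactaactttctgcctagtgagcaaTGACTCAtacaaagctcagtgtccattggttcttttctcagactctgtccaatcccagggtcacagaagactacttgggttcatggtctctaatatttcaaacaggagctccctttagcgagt
ISG20, chr15:88638766-88639015, plus strand: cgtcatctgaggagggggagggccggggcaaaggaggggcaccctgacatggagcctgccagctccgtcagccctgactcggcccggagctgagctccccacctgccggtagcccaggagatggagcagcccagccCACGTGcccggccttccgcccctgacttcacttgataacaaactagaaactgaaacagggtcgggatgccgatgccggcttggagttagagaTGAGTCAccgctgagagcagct
The capitals in HBP1 are the reverse complement of the forkhead motif TGTTTAC, 173 bases before the start. Those in HLA-DPB1 are an AP-1 motif, TGANTCA, 123 bases before the start, and ISG20 holds another 22 bases before the start and an E-box, CACGTG, 114 bases before it. No printed match overlaps another. The forkhead motif was in 7 of 67 promoters of genes higher with EGF (10.4%), among them 3 of the 6 whose genes insulin had lowered, and in 160 of 6711 promoters of all genes tested (2.38%). The AP-1 motif was in 8 of the 67 (11.9%) and in 325 of the 6711 (4.84%). The ETS motif CCGGAAGT was in 1 of 67 (1.49%) and 577 of 6711 (8.60%), and the E-box in 7 of 67 (10.4%) and 701 of 6711 (10.4%). The CRE palindrome TGACGTCA was in 2 of 67 (2.99%) and 229 of 6711 (3.41%), the EGR1 box GCGGGGGCG in 6 of 67 (8.96%) and 564 of 6711 (8.40%), and the sterol element in 0 of 67 and 8 of 6711 (0.119%). These shares describe letters and were not tested.

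Of 23 measured genes of intestinal differentiation 3 were higher with EGF than with insulin and none lower, against 1.07% of all genes higher, with a list median of 0.05 against -0.05 over all genes. CEACAM1, an adhesion molecule of epithelia (probe set 209498_at, chromosome 19), had a signal of 2884 to 3519.8 (median 3028) with EGF, 1670.3 to 2576 (median 1843) with insulin and 1578 to 2809 (median 2039.6) untreated. No EGF array was below any insulin array, and the difference was 0.67 ± 0.10 (SE; adjusted p = 0.000183). None of the 4 other CEACAM1 probe sets passed, at 0.39 to 1.21. The keratin KRT20 ranged over 5897 to 8969 (median 7197) with EGF, 4572 to 7591 (median 5052) with insulin and 4424 to 7290.3 (median 5160.2) untreated. It differed by 0.42 (adjusted p = 0.0124), a call lost without EGF replicate 2 at 8 h, insulin replicate 2 at 16 h or insulin replicate 1 at 4 h. CEACAM5, the carcinoembryonic antigen, differed by 0.52 (adjusted p = 0.0396), mostly at 16 h, where its signal was 1479.8 and 1494 with EGF and 453 and 1002 with insulin. Without insulin replicate 1 at 16 h the adjusted p of CEACAM5 was 0.287, and a second probe set lay on the other side of 0, at -0.66 (adjusted p = 0.561).

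Other lists had at most 2 genes higher with EGF and none lower. NDRG1, a stress-responsive gene among 23 of glycolysis and hypoxia, was higher with EGF by 0.64 ± 0.13 (SE; adjusted p = 0.00659), with EGF at 276 to 358 (median 307), insulin at 153 to 244 (median 207) and untreated cells at 167 to 252 (median 204). CX3CL1, a membrane-bound chemokine among 26 NF-kB and chemokine genes, was higher by 0.63 ± 0.10 (SE; adjusted p = 0.000306), and a second probe set gave 0.91 (adjusted p = 0.000306). For both genes EGF arrays were above insulin arrays at every time. BTG1, an antiproliferative gene, gave 0.51 (adjusted p = 0.0143), TNFSF10, the death ligand TRAIL, 0.38 (adjusted p = 0.0399), and IGFBP6, a binder of insulin-like growth factors, 0.40 (adjusted p = 0.0288). These 3 calls were lost in 6, 10 and 8 of the 12 fits with 1 array left out. A second BTG1 probe set gave 0.18 (adjusted p = 0.664), and the 2 other TNFSF10 probe sets 0.38 and -0.06, neither past the test. The survival genes MCL1 and BCL2L1 gave 0.15 (adjusted p = 0.596) and -0.11 (adjusted p = 0.854). Their other probe sets did not pass, at 0.31 to 0.64 for 4 of MCL1 and 0.55 and 0.92 for 2 of BCL2L1.

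Lists of biosynthesis and proliferation had no member past the test between EGF and insulin in either direction. Over all genes 3172 of 8105 lay above 0. The median EGF minus insulin difference was -0.25 over 14 genes of fatty acid synthesis, of which 1 lay above 0, and -0.13 over 19 genes of sterol synthesis and uptake, of which 5 did. FASN, fatty acid synthase, gave -0.45 (adjusted p = 0.332), HMGCS1, an early enzyme of the sterol pathway, -0.36 (adjusted p = 0.509) and INSIG1, a feedback regulator, -0.15 (adjusted p = 0.846). Of 39 genes of G1/S and DNA replication 6 lay above 0, with a median of -0.12, and of 34 genes of mitosis 7 did, with a median of -0.10. Ribosome biogenesis, with 25 genes, had a median of -0.11, and 5 lay above 0. After median centring the 5 medians were -0.15, -0.04, -0.03, -0.01 and -0.01 in the same order, against 0.05 over all genes, and 4, 9, 16, 16 and 12 genes lay above 0. Insulin raised 3 of these genes over untreated cells, where 0.148% of all genes were higher: NOP16 by 0.46, WDR3 by 0.55 and BYSL by 0.51, which act in ribosome assembly and were named after their values were seen. EGF raised none of the list, and after median centring none passed for insulin. The amino acid response genes and tRNA synthetases had medians of -0.02 and 0.00.

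**Figure D3:**
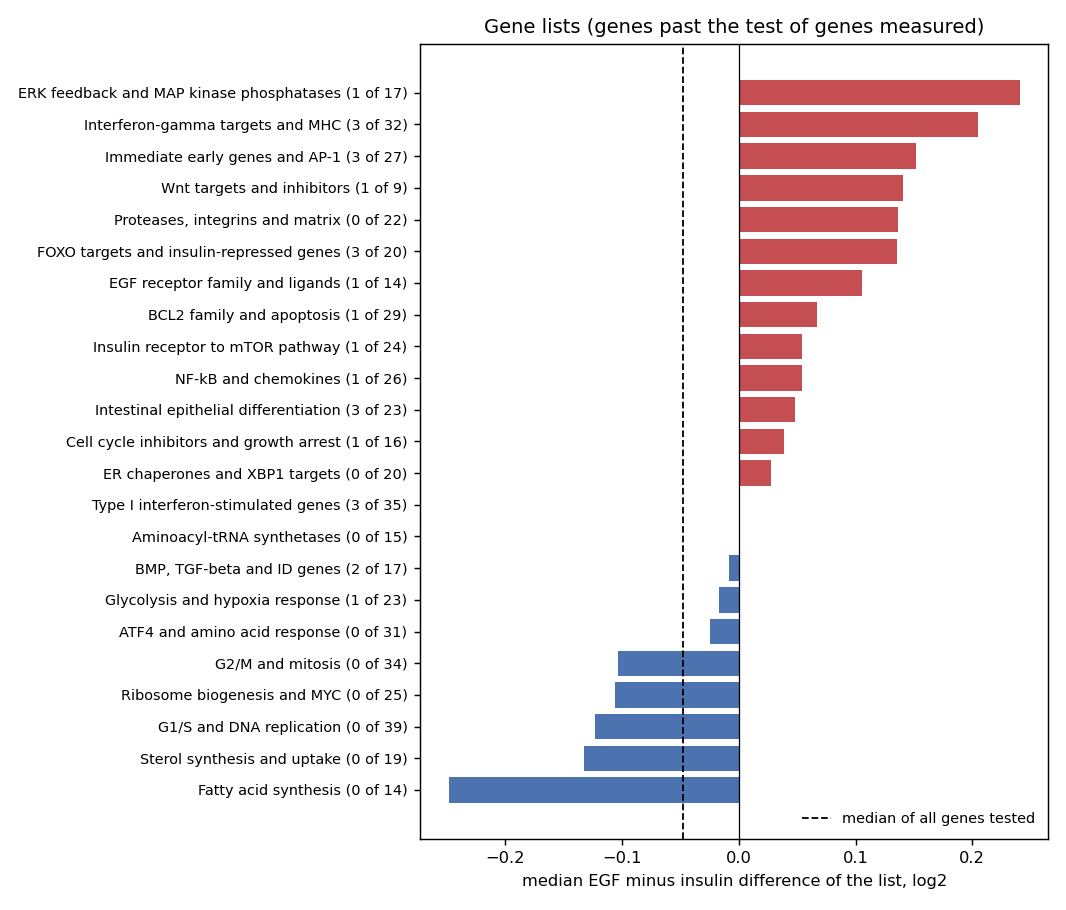
Median EGF minus insulin difference (log2) of 23 gene lists, with the number of genes past the test of the number measured after each name; red bars are above 0, blue bars below, and the dashed line is the median over all 8105 genes, -0.05. The ERK feedback list (0.24) and the interferon-gamma and MHC list (0.20) are at the top, and fatty acid synthesis (-0.25) at the bottom.

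The 10 genes lower with EGF than with insulin were led in stability by AKAP7 and CDC7. AKAP7, an anchor of protein kinase A (probe set 205771_s_at, chromosome 6), had a signal of 123 and 79.9 at 4 h, 104 and 124 at 8 h and 135 and 119.8 at 16 h with EGF. With insulin it was 186 and 212 at 4 h, 198 and 180.2 at 8 h and 268 and 222 at 16 h, and in untreated cells 169.9 and 198 at 4 h, 219 and 170.5 at 8 h and 158 and 266 at 16 h. EGF arrays were below insulin arrays at every time. EGF minus insulin was -0.82 ± 0.17 (SE; adjusted p = 0.0086), and EGF minus untreated was -0.72 ± 0.17 (SE; adjusted p = 0.0262). The call between EGF and insulin was lost without EGF replicate 2 at 4 h. That between EGF and untreated cells was lost in 7 of the 12 fits with 1 array left out and after median centring or quantile normalization. A second AKAP7 probe set gave -0.46 (adjusted p = 0.537) for EGF minus insulin. CDC7, a kinase that starts DNA replication, ranged over 343 to 513 (median 436) with EGF, 518 to 719 (median 663) with insulin and 461 to 700.3 (median 573) untreated. It differed by -0.55 ± 0.11 (SE; adjusted p = 0.00393), and of the 10 it was the one whose call held with each of the 12 arrays left out. NECTIN3, a cell adhesion protein, differed by -0.81 (adjusted p = 0.0121) and lost the call without EGF replicate 1 at 8 h, insulin replicate 2 at 4 or 8 h, or insulin replicate 1 at 16 h. DTX4, a ubiquitin ligase of the Notch pathway, differed by -0.41 (adjusted p = 0.00934) and lost it without EGF replicate 2 or insulin replicate 1 at 16 h. NMB, the peptide neuromedin B, differed by -0.45 (adjusted p = 0.0167) and lost the call in 4 of the 12 fits with 1 array left out. The other 5, ADAMTS2, GNB1L, POLR3G, ANKMY2 and ALG8, at -1.05, -0.63, -0.58, -0.38 and -0.34, lost it in 10 or 11 of the 12. The calls of CDC7, DTX4, NMB, POLR3G, GNB1L, ANKMY2 and ALG8 were also lost after median centring.

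The number of probe sets past the test was counted at each time. At 4 h 32 probe sets passed the test (0.238%; 31 higher with EGF), at 8 h 16 (0.119%; 15 higher) and at 16 h 17 (0.127%; 13 higher), or 28 higher and 2 lower after median centring. The count at 4 h was 11 and 17 without EGF replicate 1 and 2 of that time and 13 and 11 without insulin replicate 1 and 2. At 8 h it was 2 without EGF replicate 2, and 126 and 6 without insulin replicate 1 and 2. At 16 h it was 1 and 2 without EGF replicate 1 and 2, and 1 and 31 without insulin replicate 1 and 2. The change of the difference over time itself passed for 2 of 13422 probe sets (0.0149%), while 560 were under 0.05 before adjustment. The first was the described probe set of CD55, with differences of 1.97 at 4 h, 1.19 at 8 h and 0.19 at 16 h (adjusted p = 0.0103). The second CD55 probe set did not pass this test. The other was DUSP1, a MAP kinase phosphatase of the immediate early response. Its signal with EGF was 699 and 513 at 4 h, 382 and 322 at 8 h and 1038 and 1201 at 16 h, with insulin 155 and 212 at 4 h, 282 and 236 at 8 h and 1464 and 1817 at 16 h and untreated 299 and 394 at 4 h, 293 and 195 at 8 h and 988 and 1023 at 16 h. EGF arrays were above insulin arrays at 4 h and below them at 16 h, with differences of 1.65, 0.43 and -0.54 at 4, 8 and 16 h (adjusted p = 0.0194). Leaving out 1 array ended the call of CD55 in 4 of the 12 fits and that of DUSP1 in 5 of the 12. ARL14 had 2.40, 1.21 and 0.36 at the 3 times, and its change did not pass (adjusted p = 0.0577), nor did those of SERPING1, a complement inhibitor, GCNT3, a mucin-type glycosyltransferase, and IER3 (adjusted p = 0.0781 each).

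The second question is what EGF and insulin share. Against untreated cells 15 probe sets (0.112%) passed the test for both in the same direction, 9 higher and 6 lower, and none passed in opposite directions. The count of 15 was 8 without EGF replicate 1 at 16 h, 9 without EGF replicate 2 at 8 h, 9 without insulin replicate 1 at 16 h or replicate 2 at 4 h, 6 without untreated replicate 1 at 16 h and 8 without untreated replicate 2 at 8 h. With 1 probe set per gene there were 11 genes (0.136%), which is 11.7% of the 94 genes that passed for EGF (1.16% of all genes; 0.938% higher and 0.222% lower) and 31.4% of the 35 that passed for insulin (0.432%; 0.148% higher and 0.284% lower). Because both comparisons use the same untreated arrays, the values are given side by side. FOSL1, an AP-1 protein of the ERK response (probe set 204420_at, chromosome 11), had a signal of 1083 and 1175 at 4 h, 1166 and 1167 at 8 h and 1378 and 1694 at 16 h with EGF. With insulin it was 1073 and 971 at 4 h, 805 and 909 at 8 h and 1352 and 1948 at 16 h, and untreated 535 and 538 at 4 h, 467 and 410.3 at 8 h and 1193 and 965 at 16 h. Both treatments lay above untreated cells at every time, EGF by 0.98 ± 0.11 (SE; adjusted p = 2.80e-07) and insulin by 0.82 ± 0.11 (SE; adjusted p = 3.71e-05). CDKN1A, the cell cycle inhibitor p21 (probe set 202284_s_at, chromosome 6), had 677 and 552 at 4 h, 336 and 443 at 8 h and 704 and 717 at 16 h with EGF. Insulin gave 280.3 and 367 at 4 h, 469.9 and 328 at 8 h and 624 and 652 at 16 h, and untreated cells 43.9 and 180.1 at 4 h, 275 and 176 at 8 h and 643 and 694 at 16 h. At 16 h all 6 arrays lay within 624 and 717, and the mean rises were 1.15 ± 0.19 (SE; adjusted p = 0.000318) for EGF and 0.80 ± 0.19 (SE; adjusted p = 0.0462) for insulin.

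ID1, an inhibitor of differentiation factors, rose by 0.97 (adjusted p = 1.80e-07) with EGF and 0.52 (adjusted p = 0.0124) with insulin, and was the only shared gene that also separated the treatments, at 0.45 (adjusted p = 0.0197). Its signal was 6782 to 14409.8 (median 8318) with EGF, 3635 to 15312 (median 5380.4) with insulin and 1607 to 14249 (median 4399.8) untreated. P2RY2, a receptor for extracellular nucleotides, rose by 0.76 with EGF and 0.55 with insulin. PHLDA2, a growth-restraining imprinted gene, rose by 0.60 with EGF and 0.57 with insulin, and IER3, an immediate early gene, by 0.33 with EGF and 0.45 with insulin. SELENBP1, a selenium-binding protein (probe set 214433_s_at, chromosome 1), had 369 and 457 at 4 h, 551 and 623 at 8 h and 589.9 and 718 at 16 h with EGF. Insulin gave 551 and 543 at 4 h, 538 and 687 at 8 h and 646 and 655 at 16 h, and untreated cells 786 and 735 at 4 h, 1041 and 1026 at 8 h and 949 and 919 at 16 h. Every EGF and insulin array lay below the untreated arrays of its time, with differences of -0.73 (adjusted p = 2.69e-05) for EGF and -0.58 (adjusted p = 0.00283) for insulin. DEPTOR, an inhibitor of mTOR, gave -0.65 (adjusted p = 0.00468) for EGF and -0.65 (adjusted p = 0.0116) for insulin. ASS1, an enzyme of arginine synthesis, gave -0.47 (adjusted p = 0.0161) for EGF and -0.81 (adjusted p = 3.71e-05) for insulin. HCP5 gave -0.60 for EGF and -0.52 for insulin, and CYP1B1, a cytochrome P450, -0.40 for EGF and -0.46 for insulin. JAG1 and PMAIP1 are not counted as shared genes, since their described probe sets did not pass for both factors. Another JAG1 probe set did, at 0.80 (adjusted p = 0.00269) for EGF and 0.87 (adjusted p = 0.00283) for insulin. So did another PMAIP1 probe set, at 0.57 (adjusted p = 0.0432) for EGF and 0.62 (adjusted p = 0.0484) for insulin. With 1 array left out, the insulin call was lost in 9 of the 12 fits for CDKN1A, 11 of the 12 for P2RY2 and 9 of the 12 for HCP5, and the EGF call in 10 of the 12 for IER3. After median centring 1 of the 15 shared probe sets remained.

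**Figure D4:**
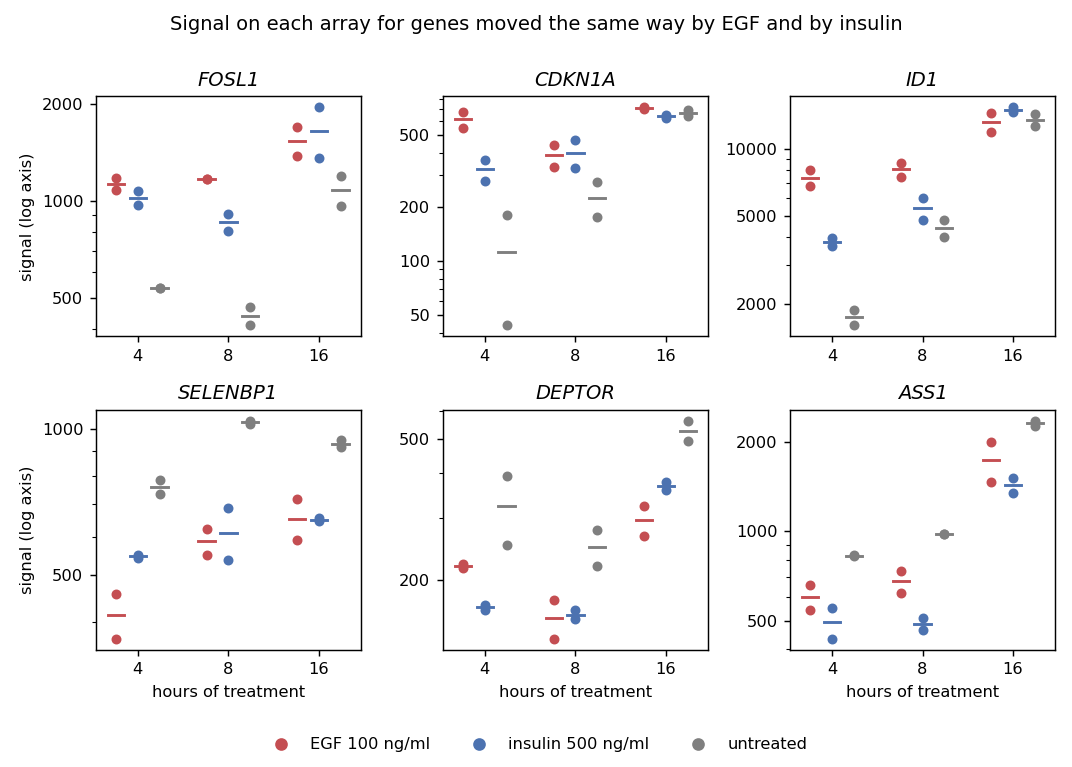
MAS5 signal (log axis) on each array against hours of treatment for 3 genes raised and 3 genes lowered by both factors; points are arrays, dashes the mean of 2, with EGF left, insulin in the middle and untreated right. FOSL1 at 8 h is at 1166 and 1167 with EGF, 805 and 909 with insulin and 467 and 410.3 untreated, and SELENBP1 at 8 h at 551 and 623 with EGF, 538 and 687 with insulin and 1041 and 1026 untreated.

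The last question is whether the separation was the same under TNF. The same contrast was made under TNF at 100 ng/ml, where 152 probe sets (1.13%) separated EGF from insulin, 54 higher and 98 lower with EGF, and 107 genes (1.32%; 0.432% higher, 0.888% lower). After median centring the split was 21 higher and 25 lower. The count of 152 was 66, 80 and 88 without TNF with EGF replicate 1 at 16 h, replicate 2 at 4 h and replicate 2 at 8 h, and 98, 87 and 62 without TNF with insulin replicate 1 at 16 h, replicate 2 at 16 h and replicate 1 at 8 h. The first of these insulin arrays, replicate 1 at 16 h, had the lowest median signal of the 54 arrays, 110.9, and an ACTB ratio of 0.633. Of the 97 genes that separated the treatments without TNF, 72 kept their direction, 14 passed again in the same direction and 2 passed in the opposite one. The 72 were 66 of the 87 genes higher with EGF and 6 of the 10 lower, where 44% of all genes lay above 0 under TNF. The 87 genes higher with EGF had a median difference of 0.15 under TNF, against 0.55 without it, where the second value is that by which they were chosen. The genes that passed again included DKK1 (0.87, adjusted p = 2.22e-06), CD55 (0.54, adjusted p = 0.00733), KRT20 (0.59, adjusted p = 0.000339) and HBP1 (0.62, adjusted p = 0.000669). ARL14, NDRG1 and TNFSF10 passed too, at 0.61, 0.54 and 0.40. Their calls under TNF were lost in 10 of the 12, 7 of the 12 and 9 of the 12 fits with 1 array left out, and those of ARL14, NDRG1 and CD55 after median centring. The CD55 difference under TNF minus that without TNF was -0.58 (adjusted p = 0.133) on the described probe set. On the second CD55 probe set it was -0.81 (adjusted p = 0.0489), which passed the test.

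The difference between the contrast with TNF and the contrast without it passed the test for 34 probe sets (0.253%), 4 higher and 30 lower, and for 22 genes (0.271%; 0.037% higher, 0.234% lower), 10 of them among the 97. The count of 34 was lower by over 1.5 times without EGF replicate 2 at 16 h (15), EGF replicate 2 at 4 h (22), insulin replicate 1 at 16 h (20) or insulin replicate 2 at 4 h (20), and without replicate 1 of TNF with EGF at 4 h (20) or of TNF with insulin at 8 h (19). Of the 32 interferon-gamma and MHC genes 2, HLA-DPB1 and HLA-DQB1, were lower with EGF than with insulin under TNF and none higher, where 0.888% of all genes were lower, and the list's median was -0.07. The difference by TNF passed for 3, HLA-DPB1, CIITA and HLA-DQB1, all lower under TNF, where 0.234% of all genes were. HLA-DPB1 had 457 and 539 at 4 h, 644 and 716 at 8 h and 1220.3 and 1392 at 16 h under TNF with EGF and 658 and 719 at 4 h, 1118 and 1141 at 8 h and 2750.2 and 2473 at 16 h under TNF with insulin. Each TNF with EGF array was below both TNF with insulin arrays of its time, so the EGF minus insulin difference was -0.73 ± 0.09 (SE; adjusted p = 1.30e-05) under TNF, against 0.47 without TNF. CIITA had 264 and 211 at 4 h, 250.2 and 331 at 8 h and 221 and 322 at 16 h under TNF with EGF and 279 and 293 at 4 h, 435 and 487 at 8 h and 358 and 410.5 at 16 h under TNF with insulin. Its difference was -0.47 (adjusted p = 0.0876) under TNF, against 0.73 without TNF, and the test between them gave an adjusted p of 0.00109. The 2 other CIITA probe sets gave 0.57 (adjusted p = 0.876) and -0.43 (adjusted p = 0.899) for the same test. HLA-DRB4 gave -0.77 (adjusted p = 0.0244) under TNF, against 0.76 without it, and its call under TNF was lost in 7 of the 12 fits with 1 array left out. HLA-DQB1, another class II chain, named after its values were seen, gave -0.71 (adjusted p = 0.0234) under TNF and 0.52 (adjusted p = 0.153) without it. HLA-DOB, HLA-DRA and CD74 did not pass under TNF, at -0.35 (adjusted p = 0.589), -0.17 (adjusted p = 0.734) and -0.01 (adjusted p = 0.994).

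Of 31 measured amino acid response genes, which the factor ATF4 induces, 12 were lower with EGF than with insulin under TNF and none higher (7 and none after median centring), where 0.888% of all genes were lower, with a median of -0.36 under TNF and -0.02 without it. Taken singly, the 4, 8 and 16 h medians under TNF were -0.25, -0.67 and -0.12. Against TNF alone, insulin raised 5 of the 31 and lowered none, where 0.247% of all genes were higher. The median was 0.36, and 29 lay above 0. EGF raised 2 and lowered 3, where 0.284% of all genes were higher and 0.0987% lower, with a median of 0.01 and 16 above 0. Both comparisons use the same TNF arrays and were not run under the alternatives. The test between the EGF minus insulin contrasts with and without TNF passed for 4 of the 31 genes, all lower under TNF, where 0.234% of all genes were. These were PCK2, PHGDH, ASNS and the cystine transporter SLC7A11. PCK2, a mitochondrial enzyme of phosphoenolpyruvate synthesis, had 317 and 371 at 4 h, 479.6 and 489.7 at 8 h and 1919 and 1827 at 16 h under TNF with EGF. Under TNF with insulin it had 657 and 609.7 at 4 h, 1346 and 975 at 8 h and 2949.8 and 2489.7 at 16 h. EGF arrays were below insulin arrays at each time under TNF, and the difference was -0.87 (adjusted p = 1.30e-05) under TNF and 0.17 (adjusted p = 0.637) without it. PHGDH, the first enzyme of serine synthesis, gave -0.90 (adjusted p = 2.08e-05) under TNF and 0.17 (adjusted p = 0.667) without it, and ASNS, asparagine synthetase, -0.81 (adjusted p = 1.34e-05) under TNF and 0.11 (adjusted p = 0.772) without it. Without the 8 h arrays ASNS under TNF gave -0.49 (adjusted p = 0.133), and its difference by TNF -0.69 (adjusted p = 0.272). DEPP1, RGCC and CEACAM1, higher with EGF without TNF, were at 0.04, 0.18 and 0.02 under TNF.

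**Figure D5:**
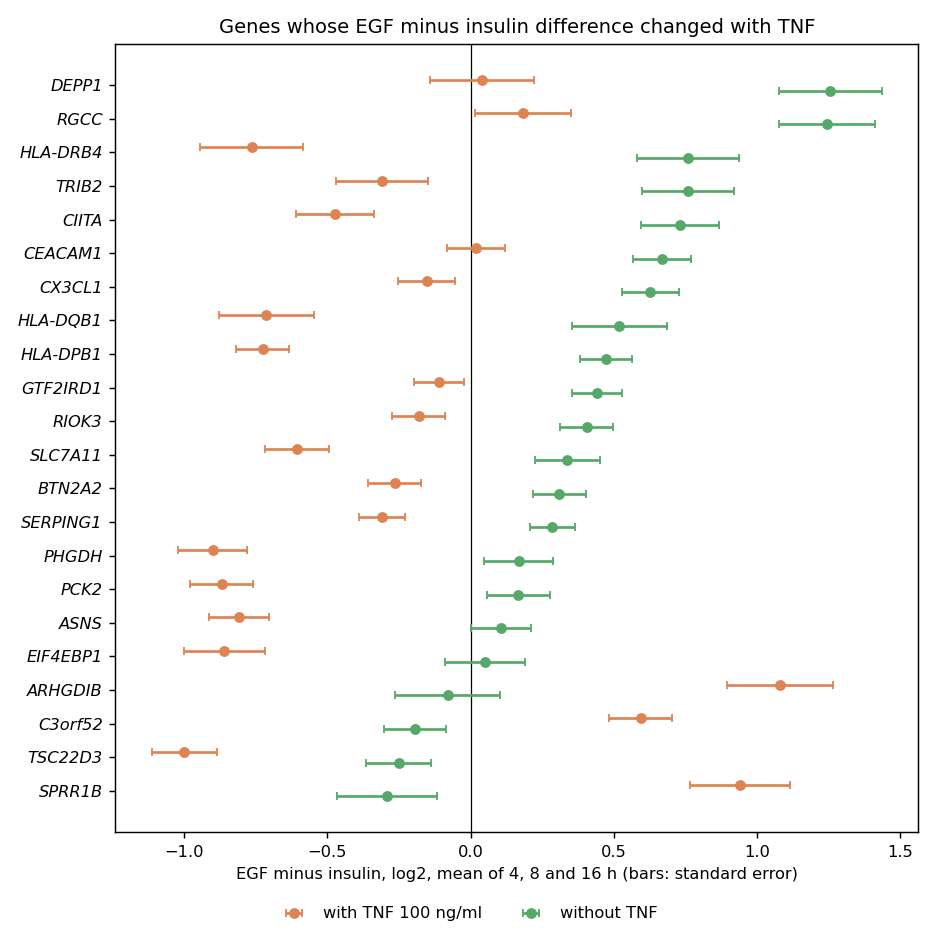
EGF minus insulin difference (log2, mean of 4, 8 and 16 h; bars are standard errors) under TNF at 100 ng/ml and without TNF, for the 22 genes whose difference changed with TNF, ordered by the difference without TNF. HLA-DPB1 lies at -0.73 under TNF and 0.47 without it, and DEPP1 at 0.04 under TNF and 1.26 without it.

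At the low doses, with TNF at 5 ng/ml, EGF at 1 ng/ml and insulin at 5 ng/ml were separated by 1 of 13422 probe sets (0.00745%), with 410 under 0.05 before adjustment. It belonged to DKK1, which was higher with EGF by 0.71 ± 0.10 (SE; adjusted p = 0.000191). Doses and TNF both differ from the comparison at 100 and 500 ng/ml, so the 2 sets of values are not compared.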

How the data were processed

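RNA of HT-29 cells was extracted with RNeasy columns, checked on a Bioanalyzer and labelled with the T7 BioArray HighYield kit, per the labels' protocols. The deposited table holds linear intensities of 22283 probe sets on 54 arrays, made with MAS5 (version not given in the sources used here), per the submitters' processing notes. Each array's mean, trimmed by 2% at both ends, lay between 500.17 and 500.22, so the deposited intensities of all arrays share one scale.

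After 68 control probe sets were left out, log2 of the signal plus 12.5, the 10th percentile of all signals, was taken. Of 22215 probe sets, 13422 had a group mean of at least the median of all log2 values (7.24) and were tested. GEO's platform annotation gave 19065 probe sets 1 gene symbol, 1043 several and 2107 none. A gene was described by its tested probe set with the highest mean over the 54 arrays. A mean for each of 27 groups was fitted over all 54 arrays with limma 3.58.1 in R 4.3.3 (27 residual degrees of freedom, eBayes with an intensity trend). The EGF minus insulin differences at 4, 8 and 16 h were averaged, and adjusted p-values (Benjamini-Hochberg, level 0.05) cover all 13422 probe sets. Fold changes understate the change of dim probe sets because of the added constant. The change over time was a moderated F test. Nothing in the labels ties same-numbered replicates across treatments, and the check of the numbers stands with the alternatives. Leaving out each array in turn, other scalings, filters, constants and models were the alternatives tried, and leaving out replicate 2 at 8 h was added after the data were seen. On simulated data, with 200 of 13422 probe sets changed, 31.3%, 85.1% and 100% of log2 changes of 0.5, 1 and 2 were recovered for EGF minus insulin, with 7 false among 151 calls. The simulated noise was normal, independent between arrays and of the spread that the fit had estimated, with each change equal at all times. Correlation between same-numbered arrays was not simulated, so these shares need not hold for the real arrays.

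The comparison, the 23 gene lists and the tests were chosen with earlier results of these data known. Named genes are up to 12 of the largest rises and falls between EGF and insulin, the shared genes, up to 4 genes of each list past the test, the 6 genes of smallest adjusted p in the change over time and in the difference by TNF, and a panel of pathway genes. Of that panel INSR and IGFBP3 were below the filter, and AREG was not analysed here. Promoters are from the RefSeq table (GRCh38.p14). No 2 of the 54 arrays held identical values.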

Additional observations from a re-analysis of the deposited data

Results flagged for a closer look

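The EGF minus insulin difference under TNF at 100 ng/ml minus the same difference without TNF passed its own test for 11 named genes, all of them lower under TNF. Among class II genes it was -1.20 (adjusted p = 1.25e-06) for HLA-DPB1, -1.21 (adjusted p = 0.00109) for CIITA and -1.52 (adjusted p = 0.0015) for HLA-DRB4. These calls held with each of 24 arrays left out. Among amino acid response genes it was -1.04 (adjusted p = 0.000607) for PCK2, -1.07 (adjusted p = 0.00109) for PHGDH and -0.91 (adjusted p = 0.00116) for ASNS. These, too, held with each of the 24 arrays left out, but that of ASNS was lost without the 8 h arrays (adjusted p = 0.272). For the chemokine CX3CL1 it was -0.78 (adjusted p = 0.00413) and for the complement inhibitor SERPING1 -0.60 (adjusted p = 0.00736). DEPP1, the FOXO target, gave -1.22 (adjusted p = 0.0237), CEACAM1 gave -0.65 (adjusted p = 0.0365) and RGCC gave -1.06 (adjusted p = 0.0419). The calls of DEPP1, CEACAM1 and RGCC were lost in 10 of the 24, 16 of the 24 and 19 of the 24 fits with 1 array left out. For the same test a second DEPP1 probe set gave -0.74 (adjusted p = 0.873). No other CEACAM1 probe set passed, with adjusted p of 0.843 to 0.983. A second CX3CL1 probe set did pass, at -1.16 (adjusted p = 0.00313).

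The EGF minus insulin difference also changed over time for 2 probe sets, of CD55 and DUSP1. The second CD55 probe set did not pass this test. At 16 h minus 4 h the difference was -1.78 for CD55 and -2.2 for DUSP1. Neither call held without EGF replicate 1 at 16 h, without insulin replicate 2 at 16 h or without insulin replicate 1 at 4 h. The CD55 call was also lost without EGF replicate 2 at 4 h (adjusted p = 0.0561), and the DUSP1 call without EGF replicate 2 at 16 h (adjusted p = 0.0665) or EGF replicate 1 at 4 h (adjusted p = 0.248).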

How the results depend on the processing

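Of 154 named results, none past the test changed sign under any alternative, and none short of it passed with the opposite sign. Changes of sign among results that passed in neither fit were not counted. Of the 45 named genes past the test between EGF and insulin, ARL14, CAPRIN2, CD55, DKK1, DUSP5 and SMAD3 passed under all alternatives run and with each of 12 arrays left out, 39 missed the threshold under at least 1 alternative, and 27 with at least 1 array left out. Counts of probe sets past the threshold moved more, and unless said otherwise the cause was not tested.

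With 1 array left out, the count ranged from 74 to 168 for EGF minus insulin (141 as reported), from 11 to 36 at 4 h (32), from 2 to 126 at 8 h (16), from 1 to 31 at 16 h (17) and from 0 to 11 for the change over time (2). It ranged from 84 to 125 for EGF minus untreated (134), from 20 to 76 for insulin minus untreated (44) and from 6 to 14 for the shared probe sets (15). It ranged from 62 to 186 for EGF minus insulin under TNF (152) and from 15 to 50 for the difference by TNF (34).

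With only the compared treatments fitted, which leaves fewer arrays to estimate the spread, 13 probe sets passed for EGF minus insulin, 9 at 4 h, 0 at 8 h, 0 at 16 h, 0 for the change over time, 43 for EGF minus untreated, 0 for insulin minus untreated, 0 shared, 28 under TNF and 13 for the difference by TNF. After median centring there were 12 at 4 h, 9 at 8 h, 30 at 16 h, 0 for the change, 5 for insulin minus untreated, 1 shared, 46 under TNF and 18 for the difference by TNF. After quantile normalization 69 passed for insulin minus untreated. A filter at the 75th percentile gave 11 at 16 h, 7 for the change and 69 for insulin minus untreated, and no filter gave 9 at 16 h and 27 for insulin minus untreated. With no intensity trend there were 18 at 4 h and 22 for the difference by TNF. The F test over the 3 times gave 83 for EGF minus insulin and 80 for EGF minus untreated.

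Without the 8 h arrays, which leaves fewer samples, 41 passed for EGF minus insulin, 11 for the change, 45 for EGF minus untreated, 23 for insulin minus untreated, 6 shared, 21 under TNF and 10 for the difference by TNF. Without the arrays of replicate 2 at 8 h there were 86 for EGF minus insulin, 2 at 8 h, 70 for EGF minus untreated, 15 for insulin minus untreated and 4 shared.

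The residuals of same-numbered EGF and insulin arrays correlated at 0.0874 at 4 h, 0.45 at 8 h and 0.17 at 16 h. Over all pairs of groups 27, 36 and 31 of 36 correlated above 0.1 at 4, 8 and 16 h, and the median correlations were 0.20, 0.428 and 0.205. Since not every pair exceeded 0.1 at 4 and 16 h, the model without a block was kept, although at 8 h every pair did. The reported counts, with the split into genes passing for EGF only or insulin only, thus treat same-numbered arrays as unrelated. With the replicate block over all times 225 probe sets passed for EGF minus insulin, 49 at 4 h, 40 at 8 h, 36 at 16 h, 6 for the change, 101 for insulin minus untreated, 24 shared, 238 under TNF and 52 for the difference by TNF. With the replicate block within each time there were 394, with 85 at 4 h, 115 at 8 h, 76 at 16 h, 11 for the change, 266 for EGF minus untreated, 229 for insulin minus untreated, 39 shared, 429 under TNF and 131 for the difference by TNF. Dim values are the least certain, such as those of DEPP1, which lay below the filter's signal of 139 on all 6 insulin arrays.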

Other observations

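The genes of this paragraph were chosen after their values were seen. CD59, which like CD55 protects cells from complement, was higher with EGF than with insulin by 0.45 (adjusted p = 0.0383) under TNF and by 0.60 (adjusted p = 0.00244) without it. CD9, a tetraspanin, differed by 0.51 (adjusted p = 0.00629) under TNF and 0.47 (adjusted p = 0.0121) without it. IL1RN, the interleukin 1 receptor antagonist, differed by 0.46 (adjusted p = 0.00429) under TNF and 0.35 (adjusted p = 0.0428) without it. HSD17B2, a steroid dehydrogenase, differed by 0.70 (adjusted p = 0.00162) under TNF and 0.66 (adjusted p = 0.00244) without it, and insulin had lowered it against untreated cells, at -0.73 (adjusted p = 0.00241). Against untreated cells EGF raised HBEGF, a ligand of the EGF receptor, by 1.12 (adjusted p = 0.00887) and CXCL8, a neutrophil chemokine, by 0.86 (adjusted p = 0.0114), and insulin gave 0.87 (adjusted p = 0.125) for HBEGF and 0.15 (adjusted p = 0.93) for CXCL8. EGF minus insulin was 0.25 (adjusted p = 0.761) for HBEGF and 0.71 (adjusted p = 0.0513) for CXCL8.

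Under TNF, CTH, an enzyme of cysteine synthesis, differed between EGF and insulin by -1.06 (adjusted p = 0.0117), and without TNF by 0.17 (adjusted p = 0.837). SPRR1B, a cornified envelope protein, differed by 0.94 (adjusted p = 0.00323) under TNF and -0.29 (adjusted p = 0.587) without it.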
